A study of Mus musculus with 8 samples.

Results

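The genes described here are the neurotrophin ligands Bdnf, Ntf3 and Ntf5 and the neurotrophin receptors Ngfr, Ntrk2 and Ntrk3, 6 of the 22367 protein-coding genes of the mouse annotation. They were chosen by name, and Bdnf was picked because its promoter lost peaks of H3K4me3, H3K9ac and H3K27me3 between LLC-NR and LLC-R. The differences between the lines in these marks are therefore a description of the chosen genes and support nothing about them. Bdnf was inside that choice by 1 peak for H3K27me3. Of the other members, Ntrk3 fell outside it with 1 fewer H3K4me3 peak but 2 more H3K9ac peaks, and Ntf5 with 1 fewer H3K9ac peak and equal numbers for the other marks.

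Both lines were Lewis lung carcinoma cells grown under the skin of young adult female C57BL/6J mice. LLC-NR is sensitive to VEGF-Trap, a decoy receptor that binds VEGF, and LLC-R was selected for resistance to it. Whether the mice whose tumors were profiled received the drug is not clear from the sources used here, which do not say how many isografts entered a library. Nucleosomes freed by micrococcal nuclease were precipitated for 1 of 4 marks (H3K4me3, H3K9ac, H3K27me3, H3K36me3), which gave 1 library per line and mark and 8 in all. There are no replicates, so no test between the lines was possible, and intervals given below cover counting error only.

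Neurotrophins are secreted growth factors that are made as precursors and cleaved to dimers, and they are best known for keeping neurons alive and shaping synapses. Bdnf encodes brain-derived neurotrophic factor, Ntf3 neurotrophin-3 and Ntf5 neurotrophin-4. Ntrk2 encodes TrkB, the receptor tyrosine kinase of BDNF and neurotrophin-4, Ntrk3 encodes TrkC, that of neurotrophin-3, and Ngfr encodes the receptor of the TNF receptor superfamily that binds all neurotrophins and their precursors. BDNF and TrkB are also made by endothelial cells and by some carcinomas. H3K4me3 and H3K9ac mark active promoters, H3K27me3 is the mark of Polycomb repression, and H3K36me3 covers the bodies of transcribed genes.

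A promoter begins 1 kb before a transcription start site (TSS) and ends 0.5 kb after it, and the main promoter of a gene is that of the TSS shared by most of its transcripts. Peaks whose midpoint lay inside were counted. Every peak is 147 bp wide, the size of 1 nucleosome, and no promoter held more than 9 of them, so the number saturates. The libraries held from 5660458 to 9101721 peaks, which cover 31.3% to 50.4% of the genome. LLC-R had 0.997 times the H3K4me3 peaks of LLC-NR, 0.919 times the H3K9ac peaks, 1.26 times the H3K27me3 peaks and 1.36 times the H3K36me3 peaks. Each difference below is read against the same difference over all promoters for this reason.

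The stretch of sequence below is the 300 bases upstream of the main TSS of Ntf3, shown because H3K4me3 peaks in its promoter numbered 6 in LLC-R against 3 in LLC-NR, read 5′ to 3′ in the direction of the gene from build NCBIM37, which is mm9 (chr6:126116763-126117062, minus strand). Capitals mark bases under 2 H3K4me3 peaks of LLC-R that had no midpoint of an LLC-NR peak within 73 bp. The LLC-NR H3K4me3 peak centered at -119 bp overlaps both of them in part, so some of the capitals also lie under a peak of LLC-NR. The stretch is intergenic, and no annotated exon overlaps it.
Ntf3: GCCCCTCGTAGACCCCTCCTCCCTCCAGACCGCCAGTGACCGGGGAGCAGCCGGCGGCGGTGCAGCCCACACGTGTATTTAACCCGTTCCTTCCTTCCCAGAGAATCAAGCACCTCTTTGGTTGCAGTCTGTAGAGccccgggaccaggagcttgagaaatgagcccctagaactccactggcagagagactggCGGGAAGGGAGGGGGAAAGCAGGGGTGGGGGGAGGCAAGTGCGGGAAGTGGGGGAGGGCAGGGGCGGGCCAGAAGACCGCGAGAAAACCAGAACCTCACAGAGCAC

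The promoters differ in composition, and the class of each was taken from its CpG content. The main promoters of Bdnf and Ntf3 are intermediate-CpG promoters (ICPs), with a G+C content of 46.6% and 52.3% and a CpG observed/expected ratio of 0.589 and 0.391. Those of Ntf5, Ngfr, Ntrk2 and Ntrk3 are CpG-rich promoters (HCPs), with G+C contents of 55.9% to 62.9%. Of all promoters, 53.9% are HCPs, 17.7% ICPs and 28.4% CpG-poor promoters (LCPs). The letters TGACGTCA, the full cAMP response element bound by CREB, were in no promoter of the 6 genes on either strand, and 3.54% of all main promoters hold them. The E-box letters CACGTG were in the main promoters of Bdnf and Ntf3 and in 22.4% of all.

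In LLC-R tumors the main promoter of Bdnf held fewer peaks of the active marks, those of Ntf3 and Ntrk2 held more H3K4me3 peaks, and those of Ntf5 and Ngfr held equal numbers of H3K4me3 peaks. For H3K4me3, 2 of the 6 genes had fewer peaks in LLC-R, 2 had equal numbers and 2 had more. Over all 22367 main promoters, 43.5% had fewer and 25.6% had more. For H3K9ac the 6 genes again split into 2 with fewer, 2 equal and 2 with more, against 50.6% of all promoters with fewer and 19.2% with more. For H3K27me3, 1 of the 6 had fewer and 5 were equal, while 15.0% of all promoters had fewer and 58.5% had more. H3K36me3 peaks were more numerous in LLC-R at all 6 promoters, as at 78.0% of all promoters, with 5.78% of all having fewer. The members' median difference was 0 peaks for H3K27me3 against 1 over all promoters, and 2 peaks for H3K36me3 in both. The plot of peaks per promoter gives each value.

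**Figure D1:**
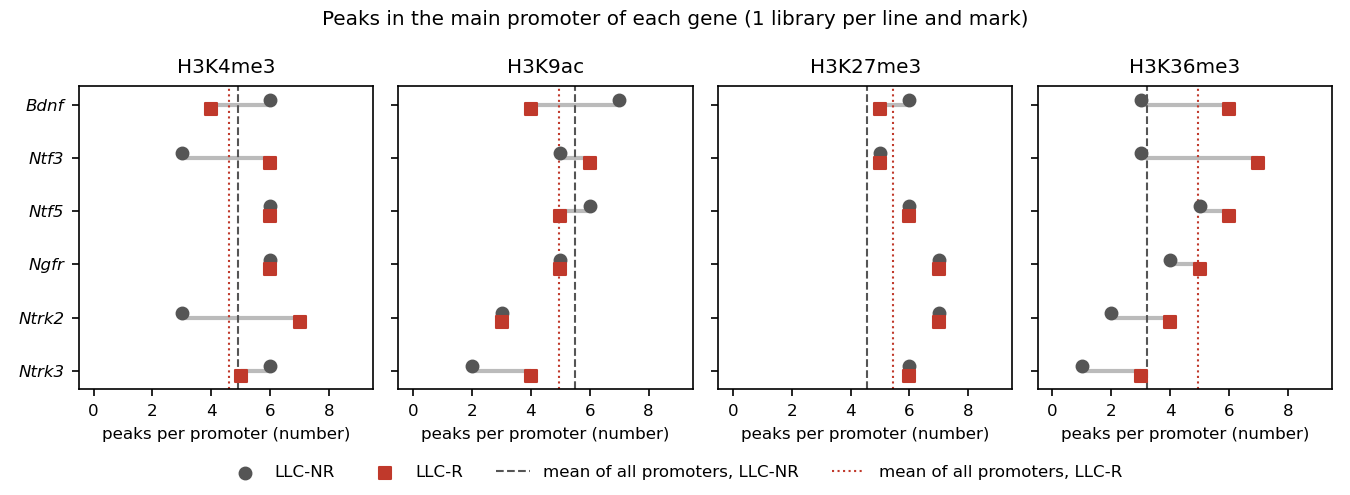
Number of peaks (horizontal axis) in the main promoter of each of the 6 genes, 1 panel per mark, with 1 LLC-NR library (circle) and 1 LLC-R library (square) per mark. Dashed and dotted lines are the means over all 22367 main promoters of the LLC-NR and the LLC-R library. For H3K4me3, Bdnf goes from 6 to 4 peaks, Ntf3 from 3 to 6 and Ntrk2 from 3 to 7, and for H3K36me3 all 6 squares lie to the right of the circles.

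Among the ligands, Bdnf went from 6 H3K4me3 peaks in LLC-NR to 4 in LLC-R at its main promoter. The H3K9ac peaks went from 7 to 4, those of H3K27me3 from 6 to 5, and those of H3K36me3 from 3 to 6. In LLC-NR these numbers were above the means over all promoters for the 3 marks that Bdnf was chosen on (4.91, 5.51 and 4.55), and in LLC-R they were below them (4.60, 4.96 and 5.45). A difference as low as that of Bdnf was found at 18.4% of all promoters for H3K4me3, 6.38% for H3K9ac and 15.0% for H3K27me3. Fewer peaks of all 3 marks at once were found at 793 promoters (3.55%), and losses at least as large in each mark at 55 (0.246%). The direction depends on the scale for H3K9ac: per uniquely mapped read, the log2 ratio of LLC-R over LLC-NR was 0.067, in place of -0.61 per peak of the library.

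Bdnf has 7 annotated TSSs, because each of several noncoding 5′ exons has a promoter of its own and is spliced to the same coding exon. The first 3 TSSs lie within 2394 bp, and the other 4 lie from 17736 to 19771 bp downstream of the first. At the first 3, H3K9ac went from 7 to 4 peaks at each promoter, and H3K4me3 went from 6 to 5, from 6 to 4 and from 8 to 5. These 3 promoters overlap and share peaks. H3K27me3 did not go the same way at them: its peaks went from 4 to 6 at the first, from 6 to 5 at the second, which is the main promoter, and stayed at 7 at the third. From 2 kb before to 1 kb after the main TSS, H3K27me3 had 1 peak more in LLC-R in place of 1 fewer. At the downstream TSSs the fourth held 5 H3K4me3 and 6 H3K9ac peaks in both lines. The fifth had 5 and 6 H3K4me3 peaks but 6 and 2 H3K9ac peaks. The last 2 TSSs, which are 2 bp apart, had 8 and 6 H3K4me3 peaks and 6 H3K9ac peaks in both lines.

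Counting each peak once, the 3.894 kb around the first group of Bdnf TSSs went from 17 H3K4me3 peaks in LLC-NR to 12 in LLC-R. H3K9ac went from 18 to 11 there, H3K27me3 from 14 to 15, and H3K36me3 from 7 to 14. Relative to the peaks of each library, the log2 ratio was -0.50 (95% interval -1.70 to 0.65) for H3K4me3. It was -0.59 (-1.82 to 0.57) for H3K9ac, and both intervals include 0. Bdnf was chosen on losses of these marks, so the intervals are no test of them. They also treat peaks as independent counts, although peaks of a library do not overlap. The 3.535 kb around the second group held 14 and 12 peaks of H3K4me3, and the same numbers of H3K9ac. Outside its promoters the gene body held 105 and 108 H3K4me3 peaks and 181 and 160 H3K9ac peaks, with log2 ratios of 0.05 (-0.36 to 0.45) and -0.06 (-0.37 to 0.26). Fewer peaks in the promoter were not rare within Bdnf itself: of 29 tiles of 1.5 kb outside its promoters, 6 lost at least 2 H3K4me3 peaks and 2 lost at least 3 H3K9ac peaks.

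Single peaks show where the numbers came from. The LLC-NR H3K4me3 peaks of the main promoter were centered at -837, -420, -151, 10, 313 and 468 bp from the TSS, and those of LLC-R at -825, -338, 2 and 287 bp. The peaks at the TSS itself and at about 0.3 kb downstream were thus present in both lines, within 26 bp. Each mark has its own library, so peaks at the same place need not come from the same nucleosomes. Beside the H3K4me3 peak at -151 bp, LLC-NR had an H3K27me3 peak at -152 bp. In LLC-R the peak there was one of H3K36me3, at -159 bp, and no midpoint of the other 3 marks lay within 73 bp of -151 bp. At 468 bp LLC-NR had a peak of H3K4me3, of H3K9ac and of H3K27me3, and LLC-R had one of H3K36me3 at 478 bp. The nearest LLC-R peak of H3K27me3 lay 76 bp from that of LLC-NR, just past the limit of 73 bp, so the 2 overlap. For H3K4me3 and H3K9ac the nearest LLC-R peaks lay 181 and 372 bp away.

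**Figure D2:**
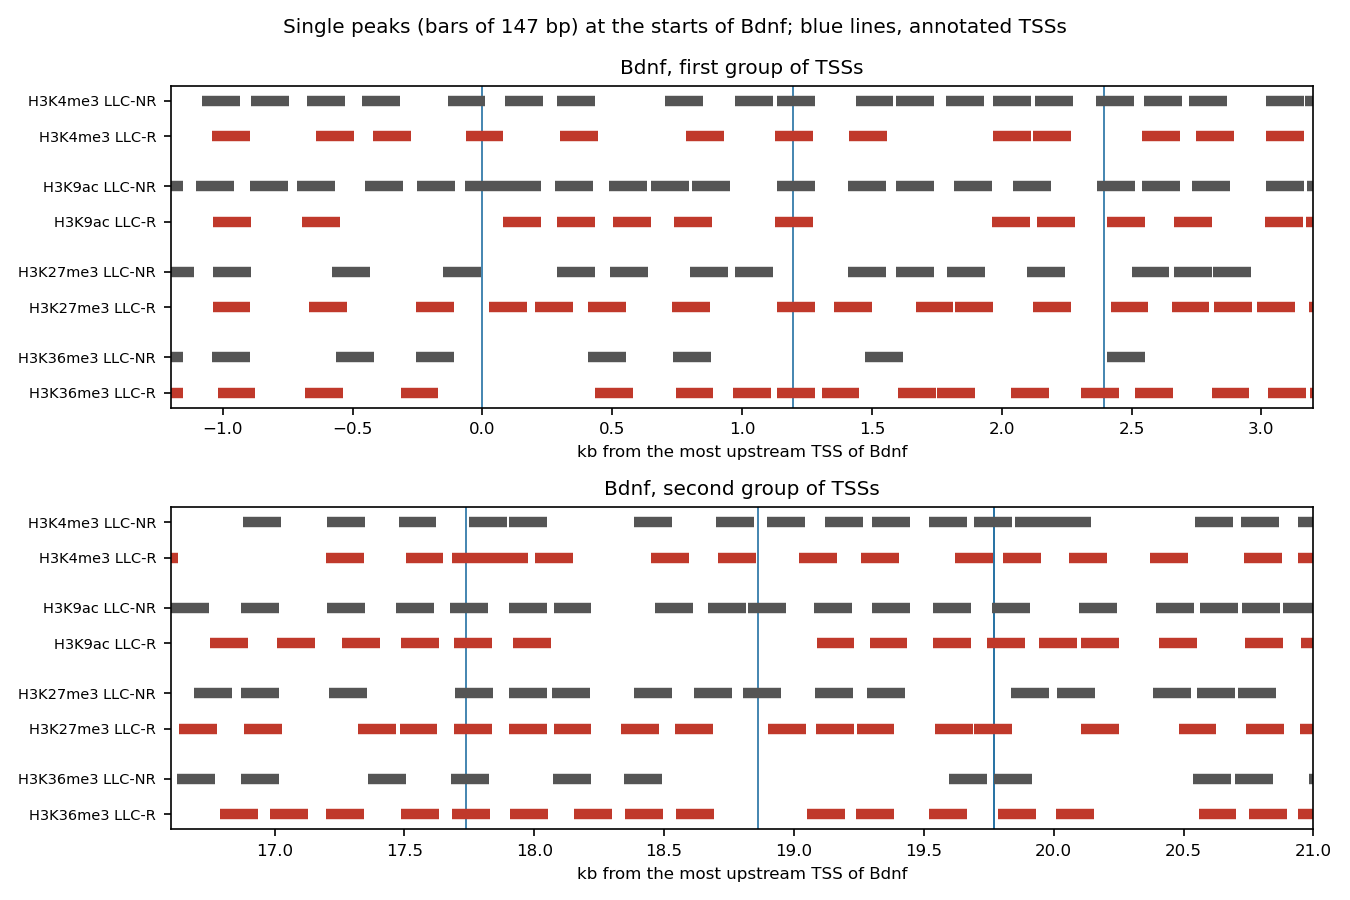
Peaks of 147 bp (bars, LLC-NR grey and LLC-R red, 1 library each) along both groups of Bdnf TSSs (blue lines), as distance in kb from the most upstream TSS. At the first group H3K9ac goes from 18 LLC-NR peaks to 11 LLC-R peaks, and H3K36me3 has 7 and 14; at the second group H3K4me3 has 14 and 12.

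Ntf3, with 1 annotated TSS, differed in the opposite direction. Its promoter went from 3 H3K4me3 peaks in LLC-NR to 6 in LLC-R, from 5 to 6 H3K9ac peaks and from 3 to 7 H3K36me3 peaks, with 5 H3K27me3 peaks in both lines. A gain of at least 3 H3K4me3 peaks was found at 2.52% of all promoters, and a gain of at least 4 H3K36me3 peaks at 13.0%. The H3K4me3 peaks of LLC-NR lay at -786, -602 and -119 bp, and those of LLC-R at -822, -657, -393, -238, -33 and 139 bp. Those at -238 and -33 bp are the ones in capitals in the printed sequence. The first 2 of each line lie within 55 bp of each other, and the 4 nearest to the TSS in LLC-R stand in the place of 1 in LLC-NR. H3K27me3 kept its places more closely, with 4 of the 5 LLC-NR peaks within 23 bp of a peak of LLC-R. In a window of 2 kb before to 1 kb after the TSS, the gain in H3K4me3 was 6 peaks, and H3K9ac then had 2 peaks fewer in place of 1 more.

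The body of Ntf3 went from 141 H3K4me3 peaks in LLC-NR to 174 in LLC-R, a log2 ratio of 0.31 (-0.02 to 0.64) per peak of the library. Of genes of at least 50 kb, 96.2% had a lower ratio. In the 1 Mb on either side the ratio was 0.09. Gains like that of the promoter recurred in the gene, since 8 of its 43 tiles outside the promoter (18.6%) gained at least 3 H3K4me3 peaks. For H3K36me3 the body had 147 and 243 peaks, a log2 ratio of 0.28 (-0.02 to 0.59). Neither interval excluded 0.

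Ntf5, the shortest of the 6 genes at 3.484 kb, varied least among the ligands. Its promoter held 6 H3K4me3 and 6 H3K27me3 peaks in both lines, 6 and 5 H3K9ac peaks, and 5 and 6 H3K36me3 peaks. All 5 LLC-R H3K9ac peaks lay within 42 bp of a peak of LLC-NR. The TSS of Lhb, which encodes the beta subunit of luteinizing hormone, lies 4658 bp from that of Ntf5. The gene body held from 11 to 16 peaks of a mark in a library, and its log2 ratios, from -0.32 to -0.10, have intervals more than 2 units wide.

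Among the receptors, Ngfr had equal numbers of peaks for the 3 promoter marks. Its promoter had 6 H3K4me3, 5 H3K9ac and 7 H3K27me3 peaks in each line, and 4 and 5 H3K36me3 peaks. The equal numbers held for this promoter region, and from 2 kb before to 1 kb after the TSS LLC-R had 3 H3K4me3 peaks and 2 H3K9ac peaks more. With 7 H3K27me3 peaks, Ngfr and Ntrk2 had the most of the 6 genes, and at least as many were found at 12.9% of all promoters of LLC-NR and 26.9% of those of LLC-R. In the gene body of 18.918 kb, H3K36me3 went from 36 to 70 peaks. The log2 ratio was 0.52 (-0.08 to 1.14) per peak of the library and 0.02 in the 1 Mb on either side, and 91.9% of genes had a lower ratio. Of the 12 tiles outside the promoter, 11 had more H3K36me3 peaks in LLC-R before scaling, which does not set Ngfr apart. The same was found in 26 of 29 tiles of Bdnf, 41 of 43 of Ntf3, 173 of 216 of Ntrk2 and 218 of 254 of Ntrk3, and not in the 1 tile of Ntf5. Divided by uniquely mapped reads, the ratio was -0.26.

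Ntrk2 went from 3 H3K4me3 peaks in LLC-NR to 7 in LLC-R at its main promoter, the largest difference of the 6 genes. Gains of at least 4 peaks were found at 0.505% of all promoters and in 3 of the 216 tiles of the gene outside its promoters (1.39%). H3K9ac had 3 peaks in both lines, a number that 92.8% of LLC-NR promoters and 91.9% of LLC-R promoters reached, and H3K27me3 had 7 in both. The LLC-NR H3K4me3 peaks lay at -177, 128 and 344 bp and those of LLC-R at -942, -710, -443, -254, -77, 166 and 361 bp. The 2 peaks downstream of the TSS were thus in both lines, within 38 bp. Upstream, LLC-NR had 1 peak in the promoter and LLC-R had 5, of which those at -254 and -77 bp flank the place of the LLC-NR peak.

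The other TSSs of Ntrk2 had equal numbers of H3K4me3 peaks. At the first TSS, 1304 bp upstream, both lines had 4 H3K4me3 peaks, and at the third, 2095 bp downstream of the first, both had 6. Over all 3.595 kb of the promoters, LLC-NR had 10 H3K4me3 peaks and LLC-R 13, a log2 ratio of 0.38 (-0.92 to 1.73) whose interval includes 0. Within 0.5 kb of the main TSS, the gain was 2 peaks. H3K9ac went from 3 to 5 peaks at the first TSS and from 3 to 2 at the third, and H3K27me3 from 4 to 6 and from 8 to 7.

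**Figure D3:**
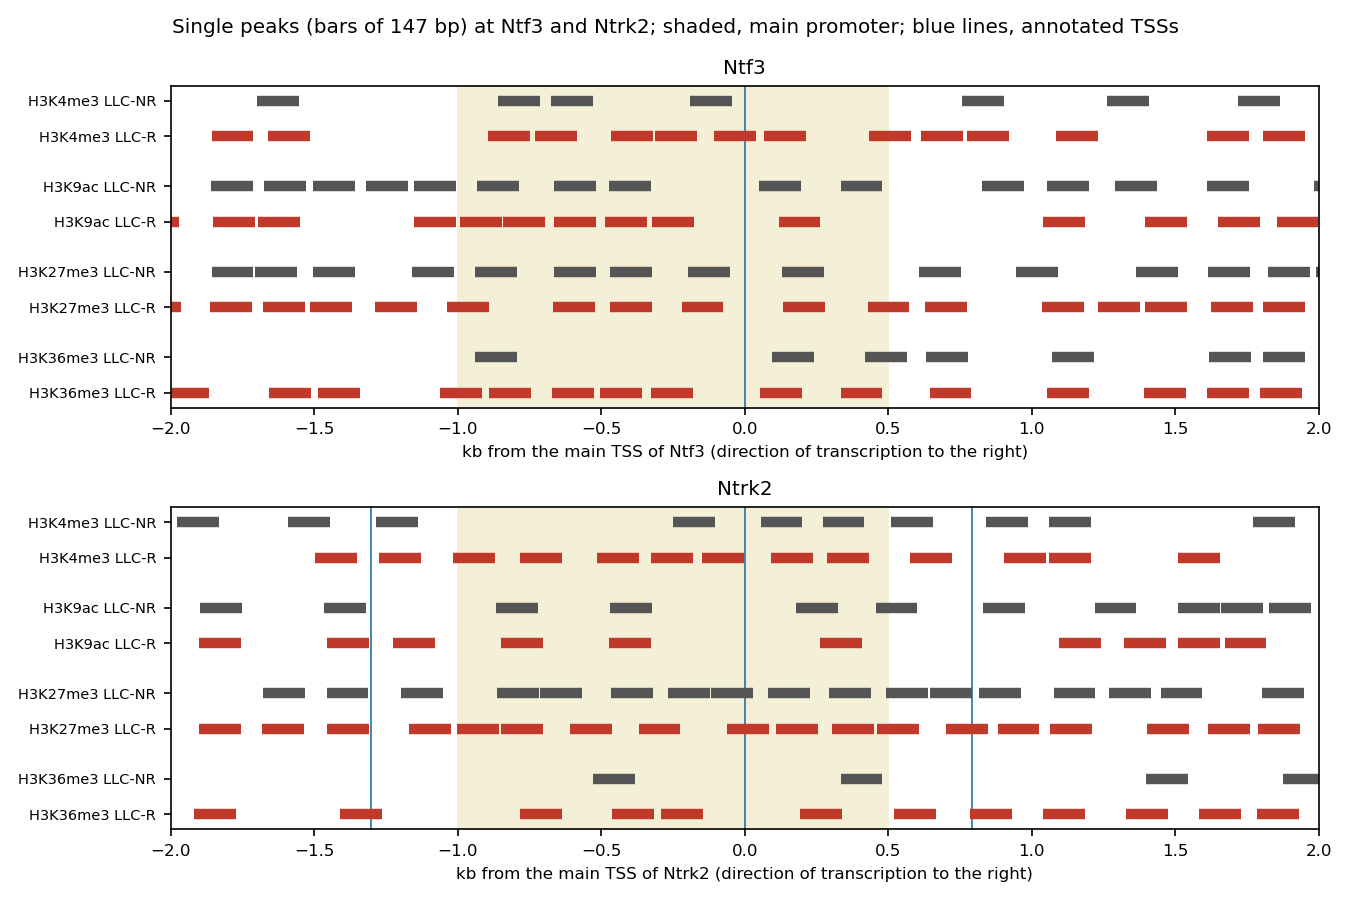
Peaks of 147 bp (bars, LLC-NR grey and LLC-R red, 1 library each) within 2 kb of the main TSS of Ntf3 (upper panel) and Ntrk2 (lower panel), with transcription to the right, the main promoter shaded and annotated TSSs as blue lines. In the shaded regions H3K4me3 goes from 3 LLC-NR peaks to 6 LLC-R peaks at Ntf3, and 3 and 7 at Ntrk2, while H3K27me3 has 5 in both lines at Ntf3 and 7 in both at Ntrk2.

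Ntrk3 went from 6 to 5 H3K4me3 peaks at its main promoter, from 2 to 4 H3K9ac peaks and from 1 to 3 H3K36me3 peaks, with 6 H3K27me3 peaks in both lines. With 2 H3K9ac peaks in LLC-NR it was the lowest of the 6 genes for that mark, and 5.41% of all promoters had fewer. A gain of at least 2 H3K9ac peaks was found at 5.40% of promoters. The sign changed with the window: at the most upstream TSS, 433 bp away, H3K9ac went from 4 to 3 peaks, and with a window of 2 kb before to 1 kb after the main TSS the difference was -1. The gene Gm9885 starts 422 bp from that upstream TSS, and peaks there cannot be assigned to either gene. The third TSS, of a transcript that is not coding, lies 200586 bp into the gene in an LCP, and went from 3 to 5 H3K4me3 peaks, from 4 to 6 H3K9ac peaks and from 2 to 6 H3K36me3 peaks.

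Over the 16 annotated promoters of the 6 genes, 7 had fewer H3K4me3 peaks in LLC-R, 5 had equal numbers and 4 had more, against 43.3% fewer and 27.5% more of the 70051 annotated promoters of protein-coding genes. H3K9ac gave the same split of 7, 5 and 4, against 50.7% fewer and 19.2% more. For H3K27me3, 2 had fewer, 8 were equal and 6 had more, against 13.8% fewer and 63.2% more. Of the 7 promoters with fewer H3K4me3 peaks, 5 belong to Bdnf, and the other 2 belong to Ntrk3. Promoters of 1 gene overlap, so these are not independent counts.

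**Figure D4:**
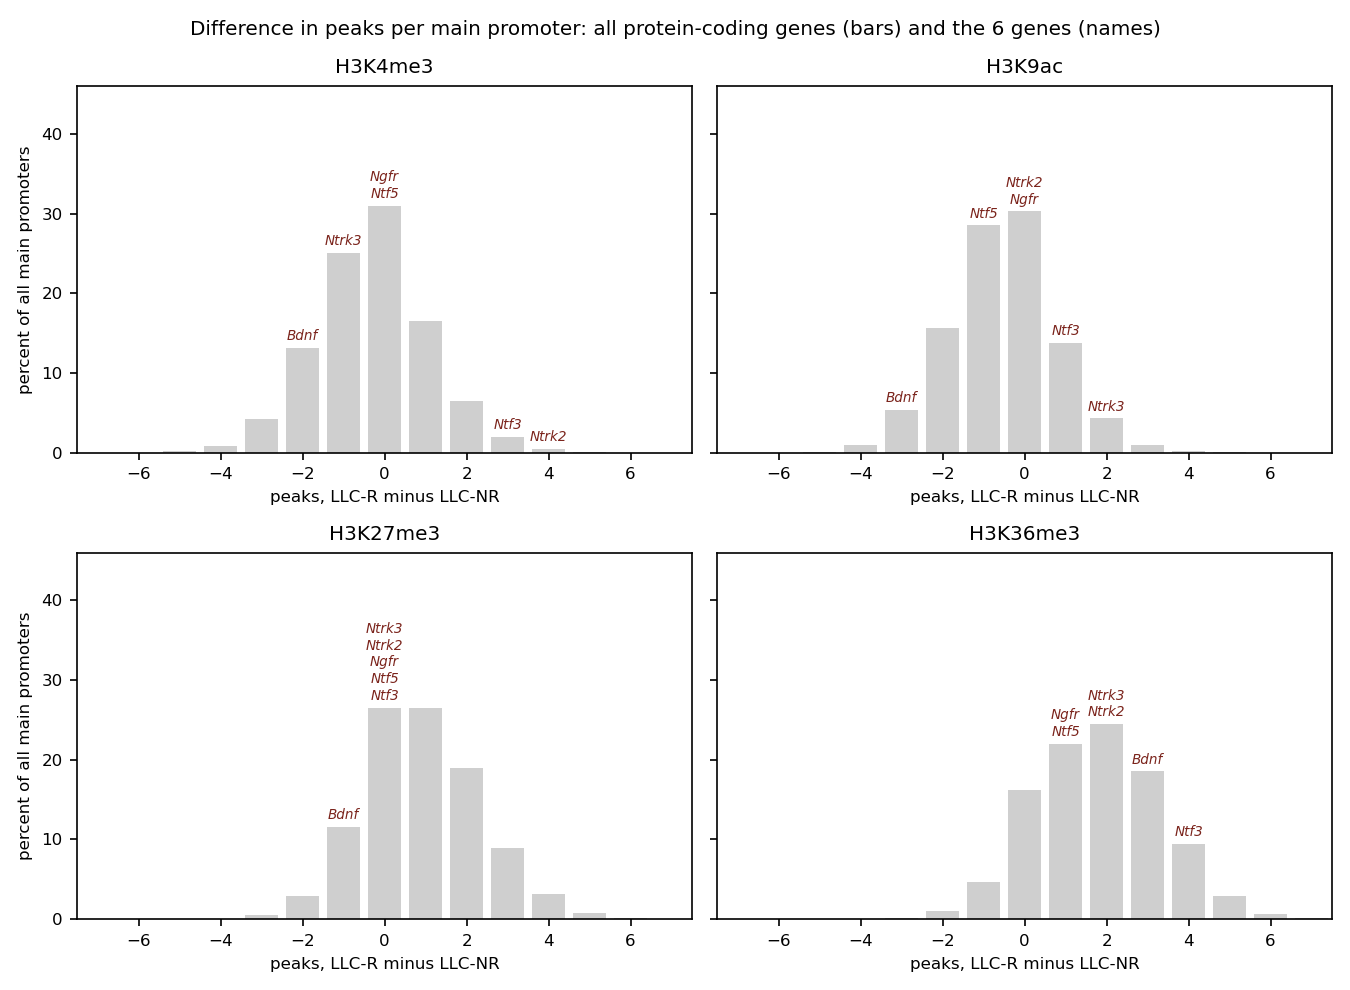
Share of all 22367 main promoters (vertical axis, percent) with each difference in number of peaks between the LLC-R and the LLC-NR library (horizontal axis), 1 panel per mark, with the 6 genes named above the bar of their own difference. Bdnf lies to the left of the highest bar for H3K4me3, H3K9ac and H3K27me3. So do Ntrk3 for H3K4me3, Ntf5 for H3K9ac and the other 5 genes for H3K27me3, whose highest bar is at a difference of 1. Ntf3 and Ntrk2 lie at the right end for H3K4me3, where bars of 2.02% and 0.456% of promoters stand.

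Within 73 bp, peaks of the 6 promoters were found at the same places in both lines about as often as those of other promoters. Of their LLC-NR peaks, 63.3% of 30 H3K4me3 peaks had a midpoint of LLC-R within 73 bp (95% interval 43.9% to 80.1%), against 64.1% over all main promoters. The shares were 71.4% of 28 H3K9ac peaks (51.3% to 86.8%) against 65.9%, 67.6% of 37 H3K27me3 peaks (50.2% to 82.0%) against 69.7%, and 72.2% of 18 H3K36me3 peaks (46.5% to 90.3%) against 66.3%. The 4 intervals include the values over all promoters. Within 20 bp the share was lower than over all promoters for H3K4me3, at 23.3% (9.9% to 42.3%) against 37.5%. It was also lower for H3K36me3, at 22.2% (6.4% to 47.6%) against 33.9%. For H3K9ac and H3K27me3 it was 42.9% against 40.3% and 35.1% against 35.3%.

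The promoters were also sorted into states, with each library's own mean per promoter as threshold for its mark. Active promoters are at or above it for H3K4me3 or H3K9ac and below it for H3K27me3, repressive promoters are at or above it for H3K27me3 alone, and bivalent promoters for both kinds of mark. For H3K9ac and H3K27me3 the thresholds lie close to the means of background windows, of 1.5 kb and more than 5 kb from any TSS. Those were 5.13 and 4.72 H3K9ac peaks in LLC-NR and LLC-R, 4.42 and 5.54 of H3K27me3, and 3.35 and 3.36 of H3K4me3. A state is therefore a place against these thresholds and not a measured chromatin state. In LLC-NR, Bdnf, Ntf5, Ngfr and Ntrk3 were bivalent, as were 48.3% of all promoters, and Ntf3 and Ntrk2 were repressive. In LLC-R, Ntf5, Ngfr, Ntrk2 and Ntrk3 were bivalent, as were 52.9% of all, Ntf3 was active, and Bdnf was in none of the 3 states. Ntf3 crossed the H3K27me3 threshold with 5 peaks in both lines, because the mean over all promoters went from 4.55 to 5.45. It crossed the H3K4me3 threshold with its own peaks, 3 and 6 against means of 4.91 and 4.60. Its H3K9ac peaks, 5 and 6, crossed means of 5.51 and 4.96, and 5 peaks would also have passed the LLC-R mean. Ntrk2 crossed the H3K4me3 threshold with its own number of peaks. Bdnf did so for H3K4me3 and H3K9ac, while its 5 H3K27me3 peaks in LLC-R lay below the mean of that library but above that of LLC-NR, so its state also rests on the shift of the mean.

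H3K36me3 was counted from 0.5 kb to 3 kb downstream of the main TSS, where it rises in transcribed genes. Bdnf went from 2 peaks there in LLC-NR to 10 in LLC-R, and 0.541% of all genes gained at least 8. Ntrk2 had 4 and 11 peaks, a gain of at least 7 that 2.08% of genes shared, and Ntrk3 had 4 and 9, a gain that 13.4% of genes reached. Ntf3 had 6 and 9 peaks, Ngfr 7 and 9, and Ntf5 8 and 7. The mean over all genes went from 6.90 to 9.17. Bdnf and Ntrk2 were thus low in LLC-NR, where 5.62% and 10.3% of genes had fewer, and at or above the middle of all genes in LLC-R, where 43.7% and 70.2% had fewer. In both genes this stretch holds the third TSS and overlaps its promoter. That promoter had 2 and 6 H3K36me3 peaks in Bdnf, and 1 and 4 in Ntrk2. Over the whole body of Bdnf the log2 ratio of H3K36me3 was 0.07 (-0.25 to 0.39) per peak of the library.

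Over whole gene bodies, from the most upstream TSS to the end of the gene, peaks were divided by the peaks of the library. H3K36me3 was lower in LLC-R in 1 of the 6 genes, against 62.7% of the genes tested, and the median log2 ratio was 0.24 against -0.11. H3K27me3 was lower in 5 of 6, against 44.6%, with medians of -0.12 and 0.07. H3K4me3 and H3K9ac were each lower in 3 of 6, against 47.4% and 51.2%. With 6 genes these counts are a description of the members, and they depend on the scale. Divided by uniquely mapped reads, 6 of 6 were lower for H3K36me3 and 0 for H3K4me3 and for H3K9ac. Unscaled, 0 were lower for H3K27me3 and 5 for H3K9ac. Shares over all genes are given for the scale by library peaks only.

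The long receptor genes gave the narrowest intervals. Ntrk3, of 386.047 kb, had 797 and 1358 H3K36me3 peaks, a log2 ratio of 0.33 (0.20 to 0.45), and 688 and 794 H3K4me3 peaks, a ratio of 0.21 (0.06 to 0.36). Of genes of at least 50 kb, 96.0% and 90.4% had lower ratios. The 1 Mb on either side of Ntrk3 had ratios of 0.16 and 0.09 for the same marks, so that the surroundings differed in the same direction by less. Ntrk2, of 327.375 kb, had 752 and 1171 H3K36me3 peaks, a ratio of 0.20 (0.06 to 0.33), against -0.03 in its surroundings. Its H3K27me3 peaks numbered 1213 and 1357, a ratio of -0.17 (-0.28 to -0.05), against -0.09 in its surroundings. Among genes of at least 50 kb, 89.6% had a lower H3K36me3 ratio than Ntrk2. For H3K27me3, 22.4% of them had a lower ratio, so that value is not rare among long genes although its interval excludes 0. Divided by uniquely mapped reads, the H3K36me3 ratios of Ntrk3 and Ntrk2 were -0.45 and -0.58, and the unscaled H3K27me3 ratio of Ntrk2 was 0.16. The body of Bdnf, of 52.348 kb, had log2 ratios from -0.09 to 0.07 for the 4 marks, and all 4 intervals include 0.

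**Figure D5:**
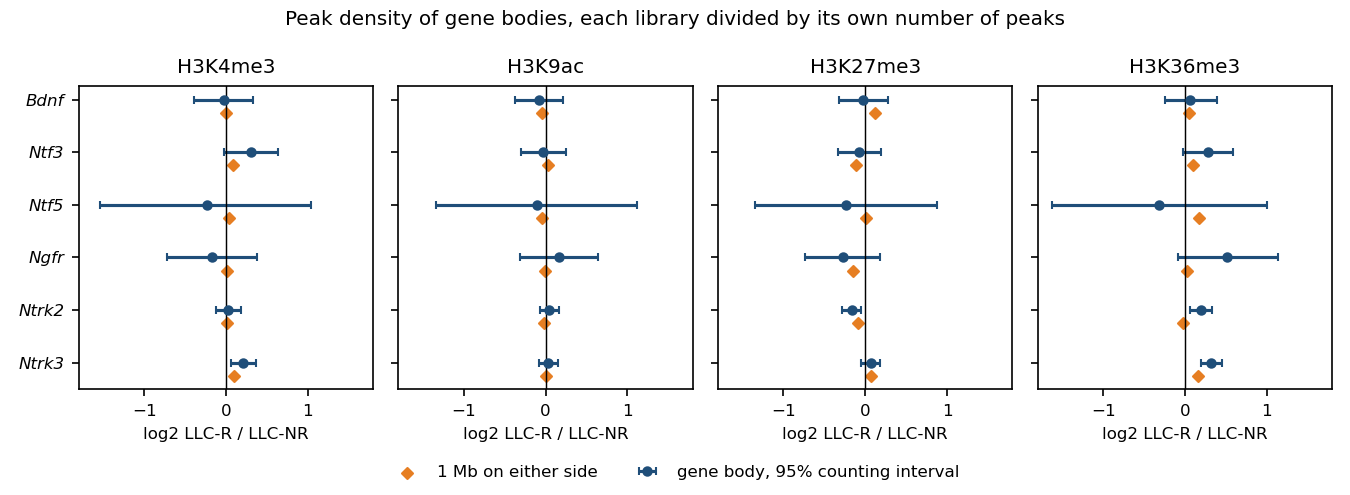
Log2 ratio of LLC-R over LLC-NR (horizontal axis) of the number of peaks in each gene body, each library divided by its own number of peaks, with 95% intervals that cover counting error only (bars) and the same ratio in the 1 Mb on either side of the gene (diamonds). The intervals of Ntrk3 for H3K4me3 and H3K36me3 and of Ntrk2 for H3K27me3 and H3K36me3 exclude 0, and those of the other members include it.

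Both receptor genes also make truncated receptors without the kinase, from transcripts that end early. In Ntrk2 the H3K36me3 ratio was 0.18 (-0.03 to 0.39) up to the end of the truncated transcript and 0.21 (0.03 to 0.38) beyond it. In Ntrk3 it was 0.34 (0.19 to 0.49) and 0.29 (0.05 to 0.54). The intervals of the 2 stretches overlap in each gene. The same held for H3K27me3 in Ntrk2, at -0.17 (-0.35 to 0.01) and -0.16 (-0.31 to -0.02).

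The other genes of the pathway were taken in 3 lists. Of 12 ligand, receptor and processing genes, 5 had fewer H3K4me3 peaks in LLC-R and 3 had more, 7 had fewer and 3 had more H3K9ac peaks, and 2 had fewer and 5 had more H3K27me3 peaks. Over all main promoters, as given above, the shares with fewer and with more peaks were 43.5% and 25.6% for H3K4me3, 50.6% and 19.2% for H3K9ac, and 15.0% and 58.5% for H3K27me3, and the counts of the 3 lists are to be read against these shares. The median difference of this list was 0 peaks for H3K4me3, -1 for H3K9ac and 0 for H3K27me3, against 0, -1 and 1 over all promoters. By summed difference Furin and Lingo1 led it with equal sums of 7 peaks. Furin, a protease that cleaves neurotrophin precursors, went from 7 to 5 H3K4me3 peaks, from 7 to 5 H3K9ac peaks and from 3 to 6 H3K27me3 peaks. Lingo1, a partner of the Ngfr receptor in the myelin inhibitor complex, went from 0 to 4 H3K4me3 peaks and from 4 to 7 H3K9ac peaks, with 5 H3K27me3 peaks in both lines.

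Of 19 adaptors that carry the signal from the receptors, 9 had fewer and 5 more H3K4me3 peaks, 7 fewer and 3 more H3K9ac peaks, and 4 fewer and 10 more H3K27me3 peaks. Rapgef1, an exchange factor for Rap1, went from 6 to 4 H3K4me3 peaks, from 5 to 6 H3K9ac peaks and from 3 to 6 H3K27me3 peaks. Maged1, a protein that binds the Ngfr receptor and whose summed difference of 5 peaks Plcg1 and Sh2b1 shared, went from 5 to 6 H3K4me3 peaks, from 5 to 4 H3K9ac peaks and from 5 to 8 H3K27me3 peaks. Of 10 regulators of Bdnf and targets of its signal, 6 had fewer and 2 more H3K4me3 peaks, 3 fewer and 4 more H3K9ac peaks, and 2 fewer and 7 more H3K27me3 peaks. Crem, a modulator of cAMP response elements, had 6 and 5 H3K4me3 peaks, 6 H3K9ac peaks in both lines and 2 and 6 H3K27me3 peaks. Nr4a1, an immediate early gene, had fewer peaks of all 3 marks as Bdnf did, with 6 and 4, 8 and 6, and 7 and 6 peaks. The median differences for H3K4me3, H3K9ac and H3K27me3 were 0, 0 and 1 peaks in the adaptors and -1, 0 and 1.5 in the regulators and targets.

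Over the 8 promoter numbers, the gene most like Bdnf was 4930555I21Rik, with the same number of peaks for every mark and line. S100a16, Jmjd5 and Tnfsf18 followed with absolute differences that sum to 2 peaks, and Kcnj16 with 3. The median sum over all genes was 11 peaks. These genes were found by the likeness alone.

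An isograft also holds cells of the host, and in bulk chromatin fewer cells that carry a mark and less of the mark per cell cannot be told apart. The main promoters of 22 marker genes of lung epithelium, neurons and glia, leukocytes, endothelium and fibroblasts held 2 to 7 H3K4me3 peaks in the LLC-NR library and 1 to 7 in that of LLC-R, 5 to 8 and 2 to 8 H3K9ac peaks, and 2 to 8 and 4 to 8 H3K27me3 peaks. None of the 22 was at 0 for any mark in any library, so numbers of peaks do not tell which of these cell types the tumors held. Fewer H3K9ac peaks in LLC-R, as at Bdnf and at 50.6% of all promoters, were found at 4 of 4 leukocyte markers and 4 of 4 fibroblast markers, with mean numbers of 6.75 and 4.75 for leukocytes and 7.25 and 5.75 for fibroblasts. They were found at 2 of 4 markers of lung epithelium, 2 of 7 of neurons and glia and 1 of 3 of endothelium, and 4 of 7 and 2 of 3 of the latter lists had more. The other marks that Bdnf was chosen on did not go the same way. H3K4me3 peaks were fewer at 3 and more at 1 of the leukocyte markers, and fewer at 1 and more at 2 of the fibroblast markers. H3K27me3 peaks were fewer at 0 and more at 3 of the leukocyte markers, and fewer at 1 and more at 2 of the fibroblast markers. The part of these cells in the differences at Bdnf was not tested.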

How the data were processed

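Per the labels and the study's methods, the authors aligned reads with Bowtie 0.12.7 to mm9, discarded those that mapped to several places and called peaks per library with GeneTrack, whose settings are not given in the sources used here. The deposited data give the start and end of each peak, with no height, read count or strand, and whether starts count from 0 or 1 is not stated, an uncertainty of 1 bp. Depth per region is therefore unknown, and the number of peak midpoints was used. Sequence and genes came from NCBIM37 and GENCODE vM1, and ties between TSSs went to the upstream one. CpG classes used observed/expected ratios of 0.6 and 0.4 and a G+C content of 55% in windows of 500 bp. Ratios of gene bodies and of groups of promoters were scaled by the peaks of the library, with exact Clopper-Pearson 95% intervals and nothing added. For the ratio of a single promoter, 0.5 was added to each number. Libraries were grouped by line and mark. Alternatives covered the promoter region, overlap, scaling (peaks, background windows, uniquely mapped reads, 1 Mb on either side), TSS and thresholds; the comparisons with long genes and with tiles of the same gene were added after seeing the data. Members and lists were chosen with earlier results of these data known. All annotated promoters of the members were described, and of each list the 2 genes with the largest difference summed over 3 marks, with ties in alphabetical order. Results for some items are not reported here. Counting was tested on simulated data. Scripts ran in Python 3.11.15 with pandas 2.3.3, NumPy 2.4.6, SciPy 1.17.1 and, for plots, Matplotlib 3.10.9.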

Additional observations from a re-analysis of the deposited data

How the results depend on the processing

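No paired analysis was possible because there is 1 library per line and mark. Scaling multiplies every number of a library by 1 factor, so members with equal numbers take the sign of that factor. The cause of other changes was not tested. For H3K27me3, 41.5% of all main promoters had equal or fewer peaks in LLC-R before scaling. Shares over all promoters and genes are given for the reported settings only. The counts below therefore describe the members and are not compared with all genes. Of the 6 main promoters, those with fewer H3K4me3 peaks (2 as reported) were 4 when 1 bp of overlap counted a peak or numbers were scaled by background windows, and 1 by uniquely mapped reads or with a loss of at least 2 peaks. For H3K9ac (2) they were 4 from 2 kb upstream to 1 kb downstream, and 1 by reads or with at least 2 peaks. For H3K27me3 (1) they were 4 from 0.5 kb to 0.5 kb, 6 when scaled by the library's peaks, background windows or reads, and 0 from 2 kb to 1 kb, at the most upstream TSS or with at least 2 peaks. Of the 16 annotated promoters, those with fewer H3K4me3 peaks (7) were 12 by background windows, and 4 by reads or with at least 2 peaks. For H3K9ac (7) they were 11 from 2 kb to 1 kb or with 1 bp of overlap, and 4 by reads or with at least 2 peaks. For H3K27me3 (2) they were 4 from 0.5 kb to 0.5 kb, 14 by the library's peaks or background windows, 16 by reads, and 0 from 2 kb to 1 kb or with at least 2 peaks. Gene bodies with lower H3K4me3 (3) were 0 by reads and 1 without the first 3 kb, those with lower H3K9ac (3) 0 by reads and 5 unscaled, those with lower H3K27me3 (5) 0 unscaled, and those with lower H3K36me3 (1) 6 by reads and 0 unscaled or without the first 3 kb. With 2 times the mean as threshold for active marks, 0 members were bivalent in LLC-NR and 0 in LLC-R. That outcome was fixed in advance, because 2 times the mean exceeds 9 peaks for both active marks in both lines. No promoter held more than 9, so this threshold says nothing about the members. Shares of peaks at the same place within 20 bp were 23.3% for H3K4me3, 42.9% for H3K9ac and 35.1% for H3K27me3. Over all main promoters they were 37.5%, 40.3% and 35.3%. With 1 bp of overlap the shares of the members were 90.0% for H3K4me3, 85.7% for H3K9ac, 94.6% for H3K27me3 and 88.9% for H3K36me3. Those over all main promoters were 83.2%, 86.4%, 92.5% and 90.7%, and each lay inside the 95% interval of the members. Of 242 alternative values for single genes, 31 turned sign. Of these, 6 concerned genes whose reported difference was at least 2 peaks or had an interval that excluded 0, namely the H3K9ac log2 ratio at the Bdnf promoter by reads (0.067), H3K9ac at the Ntrk3 promoter from 2 kb to 1 kb and at the most upstream TSS (-1 each), and in gene bodies unscaled H3K27me3 in Ntrk2 (0.16) and H3K36me3 by reads in Ntrk2 (-0.58) and Ntrk3 (-0.45). A further 13 turned with a move of more than 1 peak or to outside the counting interval of a ratio: H3K27me3 at the Bdnf promoter from 2 kb to 1 kb (1) and at the most upstream TSS (2), H3K9ac at the Ntf3 promoter from 2 kb to 1 kb (-2), and the rest in gene bodies by reads or unscaled. The remaining 12 turned within these limits, and 23 values went past them without turning sign.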
